A study of Rattus norvegicus with 30 samples.

Results

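The 200 transcripts described here were those whose levels differed most among kidneys of rats given saline, 200 of the 12788 transcripts expressed well enough to be ranked and of 40071 measured. They show how far kidneys of the same group differed when no toxicant had been given. A transcript entered the ranking with a mean of at least 5 CPM (a library's counts scaled to a common total over transcripts) over the 10 saline kidneys, a mean below 1000 TPM (which also corrects for length), and fewer than 5 of 30 libraries with an estimated count under 0.5. For each, log2(CPM + 1) was taken minus the mean of its time group, and the 200 with the largest standard deviation (SD) over the saline kidneys were kept. The rule also set aside 5 transcripts by ID, of which 3 met the level rules and 0 would have been among the 200. The members' spread in saline kidneys is therefore what chose them and is given as a description.

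RNA of whole kidneys from 30 Sprague-Dawley rats was sequenced, 1 library per animal in 6 groups of 5. The vehicle groups received saline, the low dose groups 0.25 mg/kg and the high dose groups 0.50 mg/kg mercury chloride (HgCl2), and kidneys were taken 10 or 34 h later. Sprague-Dawley is an outbred stock, and neither sex nor age of the animals is stated in the labels. Library totals were 20.2 to 39.1 M (M, mega) estimated counts on transcripts. Replicate numbers, given in order of deposition, only name the kidneys of a group. At 10 h each group is an unbroken run of library numbers, so a batch along these numbers and the dose cannot be told apart. The identity of the tissue was not checked against marker genes, since no transcript could be matched to a gene name.

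As background, a kidney holds a filter, several kinds of tubule, vessels, connective tissue and a few immune cells. Inorganic mercury is taken up mainly by the proximal tubule and injures it. A whole-kidney library averages over all of these, and in such a library fewer cells of a type and less RNA per cell cannot be told apart. A gene usually gives several transcripts that share most of their sequence, and kallisto divides a read pair that matches several of them according to an estimate of their abundance. Where sequences are shared, 1 transcript's estimate can go up as another's goes down while their sum stays the same.

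The members' SD in saline kidneys ran from 0.773 to 2.81 on the log2 scale, with a median of 1.21, against a median of 0.126 over the 12788 ranked transcripts. The last 5 members had SDs of 0.778 to 0.773 and the first 5 left out had 0.773 to 0.759, so the border cuts through a continuum. The largest departure of a member from its time group's mean was upward for 118 members and downward for 82. It lay in saline replicate 2 at 10 h for 86 members, 82 of them upward, and in saline replicate 4 at 10 h for 24. Each of the other 8 saline kidneys held the largest departure of 8 to 14 members. For 86 members the SD was under 50% of its value once a single kidney was set aside. Another 4 members split into 2 levels, with a gap of at least 50% of the range and 2 or more kidneys on each side, and the other 110 were graded.

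Counts were whole numbers in every library, within 1e-06, for 46 of the 200 members (23.0%) and for 43.3% of the ranked transcripts. The other 154 members therefore had read pairs that kallisto divided among targets. The 200 members had 188 different sets of values, because some were given the same estimate in every library.

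Grouping the members by how their levels moved together over the 10 saline kidneys (average linkage at a Pearson correlation of at least 0.9) gave a block of 69 transcripts, a block of 15, and 116 transcripts outside both. Among these 116, 3 clusters of 3 or 4 transcripts held 11, pairs held 36, and 69 stood alone. The heat map of all 30 kidneys shows these sets one below the other.

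**Figure D1:**
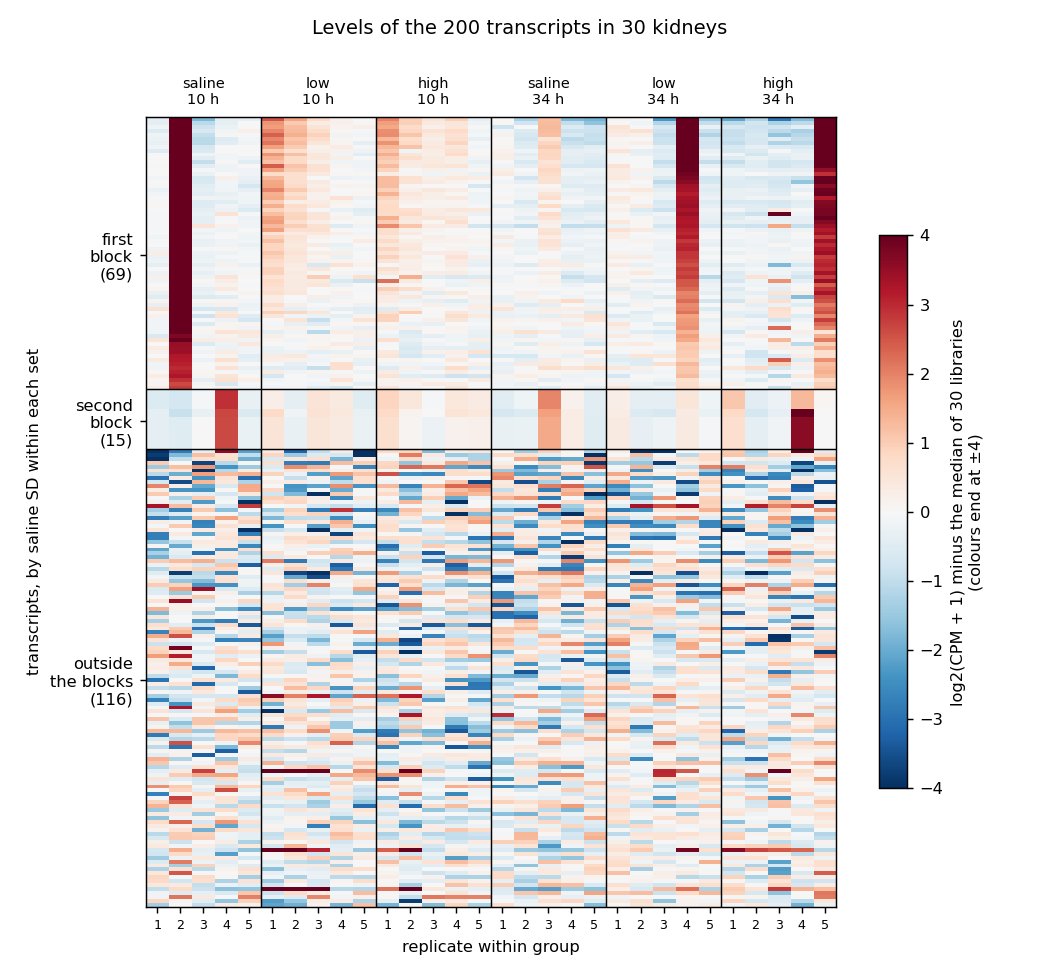
Levels of the 200 transcripts (lines) in 30 kidneys (columns, by group and replicate), as log2(CPM + 1) minus the transcript's median over the 30 libraries, with colours ending at ±4. The 69 transcripts of the first block were high in saline replicate 2 at 10 h, low dose replicate 4 at 34 h and high dose replicate 5 at 34 h, the 15 of the second block in 3 other kidneys, and the 116 others varied in every group.

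The first block was set by 1 saline kidney and was also high in 1 kidney of each dose at 34 h. Its 69 transcripts together made up 18813 CPM, or 1.88% of all counts, in saline replicate 2 at 10 h. They summed to 3634 CPM in high dose replicate 5 at 34 h and to 2767 CPM in low dose replicate 4 at 34 h. The other 27 kidneys, saline and treated, held 236 to 606 CPM, with a median of 318. In the other 4 saline kidneys at 10 h the sums were 352, 239, 320 and 277 CPM. The 3 high kidneys thus lay above all others, and they came from 3 different groups.

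**Figure D2:**
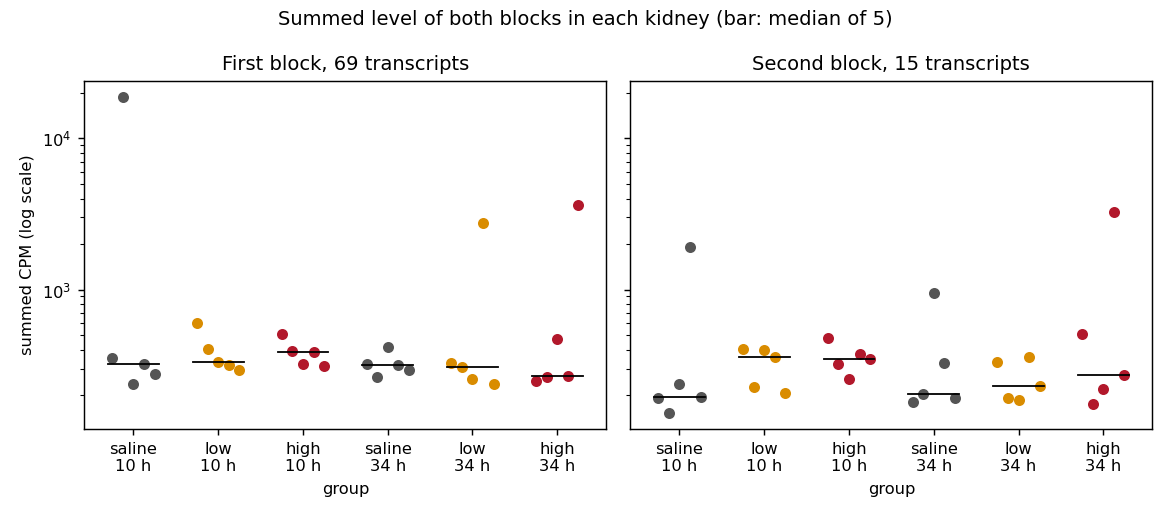
Summed CPM of the 69 transcripts of the first block and the 15 of the second block in each kidney (points, log scale) by group, with the group median as a bar. The first block reached 18813, 2767 and 3634 CPM in 3 kidneys and 236 to 606 CPM in the other 27, and the second block reached 1911, 942 and 3271 CPM in 3 different kidneys and 152 to 510 CPM in the other 27.

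The transcript with the largest saline SD, ENSRNOT00000003921 (2069 bases, whole counts in every library), led this block. Its levels in saline kidneys at 10 h were 15.3, 6050, 5.27, 15.8 and 15.7 CPM in replicates 1 to 5, and the estimated count in replicate 2 was 196760. At 34 h the saline kidneys had 20.6, 7.75, 48.5, 5.34 and 4.94 CPM. Saline replicate 2 at 10 h lay over all other 9 saline kidneys, which reached no higher than 48.5 CPM.

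In treated kidneys ENSRNOT00000003921 was again high in single animals. Low dose kidneys at 34 h had 23.0, 21.5, 3.32, 810 and 6.15 CPM, and high dose kidneys at 34 h had 4.05, 8.37, 1.95, 5.42 and 1104 CPM. At 10 h the low dose kidneys had 122, 62.9, 36.8, 23.3 and 20.5 CPM and the high dose kidneys 84.8, 41.1, 29.8, 40.6 and 16.1 CPM. Apart from the 3 high kidneys the highest value was thus 122 CPM, in low dose replicate 1 at 10 h. Over the 20 treated kidneys, with group means removed, 41 of the other 199 members correlated with it at 0.9 or more, and the member of rank 5 in saline SD did so most closely (r = 0.991).

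The same transcripts led the block in all 3 kidneys. The 5 highest in saline replicate 2 at 10 h were also the 5 highest in low dose replicate 4 and high dose replicate 5 at 34 h, and they held 52.2, 51.4 and 53.0% of the block's sum there. ENSRNOT00000003921 alone held 32.2, 29.3 and 30.4%. The next, of rank 75, had 1548, 292 and 387 CPM in these 3 kidneys and 46.4 to 121 CPM in the other 27. Rank 2 had 729, 99.9 and 116 CPM in them and at most 9.44 CPM elsewhere.

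Proportions within the block were also alike. Across the 69 transcripts, log2(CPM + 1) in saline replicate 2 at 10 h correlated at 0.98 with low dose replicate 4 and at 0.95 with high dose replicate 5 at 34 h. With the other 27 kidneys the correlation was 0.19 to 0.81, highest for low dose replicate 1 at 10 h, which also had the highest sum of the 27. These correlations are across transcripts, which are not independent. What each kidney held above the median of the other 27 was, as a share of the excess in saline replicate 2, 17.1% in high dose replicate 5 (interquartile range 14.5 to 20.4% over the 69 transcripts) and 13.0% in low dose replicate 4 (12.5 to 13.8%). Each of the 69 transcripts was higher in saline replicate 2 than in all of these 27, as were 65 in high dose replicate 5 and 66 in low dose replicate 4.

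Outside the 3 kidneys most of the block was at low levels. The median of the 69 transcripts was 102 CPM in saline replicate 2, 20.8 CPM in high dose replicate 5 and 16.2 CPM in low dose replicate 4, and 0.580 to 3.40 CPM in the other 27. At least 5 CPM was reached by 69, 67 and 68 transcripts in the 3 kidneys, and by 12 to 26 in the others. The median over saline kidneys was under 1 CPM for 34 of the 69 transcripts and for 0 of the members outside this block. Without saline replicate 2 at 10 h, 14 of the 69 still met the level rules and 1 stayed among the 200 most variable. Counts were whole for 29 of the 69, and lengths ran from 402 to 14073 bases.

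Saline replicate 2 at 10 h was 1 of 4 libraries that stood apart in many transcripts. In it 83 ranked transcripts were over 2-fold (in CPM + 1) above all 29 other libraries, and 75 of the 83 were members. In high dose replicate 2 at 10 h and high dose replicates 3 and 4 at 34 h, 74, 128 and 316 ranked transcripts lay over 2-fold above or below all others, with 0 to 4 members in either direction. In the other 26 libraries there were 0 to 9 such transcripts, with 2 in low dose replicate 4 and 0 in high dose replicate 5 at 34 h. The first block could add little to these last 2 numbers. Its median excess there was 13.0 and 17.1% of that in saline replicate 2 at 10 h. The level rules also drew on the saline kidneys, and without saline replicate 2 only 14 of the 69 met them. The numbers therefore do not compare these libraries evenly.

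The second block was highest in 3 other kidneys and held few independent measurements. Its 15 transcripts summed to 1911 CPM in saline replicate 4 at 10 h, 942 CPM in saline replicate 3 at 34 h and 3271 CPM in high dose replicate 4 at 34 h. The other 27 kidneys held 152 to 510 CPM, with a median of 237. All 15 were higher in each of the 3 kidneys than in all 27 others. None had whole counts, and the 15 had only 3 different sets of values, each shared by transcripts of equal length. These were 8 transcripts of 49 bases, shorter than the 75-base reads, 5 of 411 bases and 2 of 666 bases.

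The 3 profiles of the second block did not keep the same proportions in the 3 kidneys. Each transcript of 666 bases had 481 CPM in saline replicate 4 at 10 h, 236 CPM in saline replicate 3 at 34 h and 1310 CPM in high dose replicate 4 at 34 h, against 39.5 to 131 CPM elsewhere. Each of 411 bases had 149, 75.9 and 47.5 CPM in the same kidneys, against 11.2 to 40.5 CPM elsewhere. Each of 49 bases had 25.5, 11.2 and 51.7 CPM, against 2.03 to 5.82 CPM elsewhere. From saline replicate 4 to high dose replicate 4 the profiles of 666 and 49 bases were thus higher and that of 411 bases lower. High dose replicate 4 was 1 of the 4 libraries that stood apart.

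A transcript outside the second block was far above all others in 2 of the 3 kidneys where that block was high. ENSRNOT00000074325 (1140 bases, rank 10) had the largest SD among members whose largest departure was upward and not in saline replicate 2 at 10 h. Saline kidneys at 10 h had 0, 2.89, 19.8, 333 and 5.08 CPM of it, and those at 34 h 26.5, 9.42, 50.6, 27.5 and 10.9 CPM. The highest saline value at each time was in a kidney where the second block was high, but the 50.6 CPM at 34 h was within the range of treated kidneys. High dose kidneys at 34 h had 53.6, 10.3, 31.5, 1678 and 18.2 CPM, the 1678 CPM again in replicate 4. Low dose kidneys had 32.9, 1.98, 12.6, 32.4 and 0 CPM at 10 h and 31.9, 0, 0, 25.7 and 29.1 CPM at 34 h, and high dose kidneys at 10 h had 7.21 to 47.3 CPM. Its correlation with the profile of 666 bases was 0.82 over the saline and 0.80 over the treated kidneys.

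The 116 transcripts outside both blocks varied in every group. Their median SD within a group was 1.14, 0.838 and 0.990 in saline, low and high dose kidneys at 10 h and 1.03, 0.799 and 0.864 at 34 h. Over all ranked transcripts these medians were 0.123, 0.149 and 0.183 at 10 h and 0.132, 0.115 and 0.214 at 34 h. The first block, in contrast, had a median SD of 2.59 in saline kidneys at 10 h and 0.341 in those at 34 h.

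Downward departures were common outside the blocks. ENSRNOT00000092356 (1517 bases, rank 28) had the largest SD of the members whose largest departure was downward. Saline kidneys at 10 h had 0.495, 5.14, 46.1, 30.8 and 9.58 CPM, and those at 34 h had 35.7, 32.3, 14.7, 21.0 and 0.320 CPM. It was below 1 CPM in 1 saline kidney at each time and in low dose replicate 5 at 10 h (0.255 CPM), and at least 5.14 CPM in the other 27 kidneys. High dose kidneys at 10 h had 19.9, 88.3, 26.6, 6.56 and 7.62 CPM. The departures thus lay in kidneys of 3 groups.

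ENSRNOT00000048429 (318 bases, rank 30) was the next member by SD whose largest departure was downward and outside saline replicate 2 at 10 h. It had 0.016, 7.12, 23.9, 24.7 and 3.10 CPM in saline kidneys at 10 h. Those at 34 h had 14.3, 42.6, 2.28, 2.82 and 54.6 CPM. The 20 treated kidneys had 3.39 to 46.9 CPM, with a median of 17.2, so the near absence in saline replicate 1 at 10 h did not recur. Neither transcript had whole counts.

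Several other members, chosen for description after their values were seen and given by their rank, show the shapes of variation. The member of rank 66 (5682 bases, whole counts) counted as graded in saline kidneys, yet its values over all kidneys fell into 2 ranges. In saline kidneys it had 15.0, 34.1, 1.77, 24.8 and 13.0 CPM at 10 h and 24.2, 1.89, 27.3, 25.8 and 2.10 CPM at 34 h. Over all 30 kidneys 12 had 1.77 to 4.64 CPM and 18 had 13.0 to 35.2 CPM, with none between. Low kidneys were 3 of 10 saline and 9 of 20 treated, and all 5 high dose kidneys at 10 h were in the upper range.

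Such gaps were frequent outside the blocks. Of the 116 transcripts, 22 (19.0%) had a gap of at least 2-fold in CPM + 1 between neighbouring treated kidneys with at least 4 kidneys on each side, against 0.227% of the ranked transcripts. Only 1 of these 22 had whole counts. In the treated kidneys 58 of the 116 (50.0%) were below 1 CPM in at least 1 kidney and at 10 CPM or more in another, against 1.10% of the ranked transcripts.

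The members of rank 181 (3169 bases) and 182 (6501 bases), both with whole counts, were 2 of the 4 members with 2 levels in saline kidneys. Rank 182 had 38.5, 125, 121, 52.4 and 46.0 CPM in saline kidneys at 10 h and 63.0, 148, 47.9, 35.2 and 164 CPM at 34 h. Rank 181 had 20.4, 90.7, 85.2, 39.6 and 34.4 CPM and 42.4, 114, 45.8, 27.8 and 111 CPM in the same kidneys. Both were highest in replicates 2 and 3 at 10 h and in replicates 2 and 5 at 34 h. For rank 182 these 4 kidneys had 121 to 164 CPM and the other 6 had 35.2 to 63.0 CPM. The treated kidneys had 29.5 to 124 CPM and filled this gap, with 83.5 and 97.9 CPM in low dose replicates 2 and 5 at 10 h. Their correlation was 0.97 over the saline and 0.89 over the treated kidneys, with group means removed.

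Rank 153 (1863 bases, whole counts) was nearly constant apart from 1 saline kidney. It had 51.7, 53.8, 47.3, 4.16 and 47.8 CPM in saline kidneys at 10 h and 50.9 to 55.4 CPM at 34 h. Treated kidneys had 21.3 to 55.1 CPM, and the lowest were low dose replicates 2 (21.3 CPM) and 1 (24.4 CPM) at 10 h. None of the treated kidneys was as low as saline replicate 4 at 10 h.

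**Figure D3:**
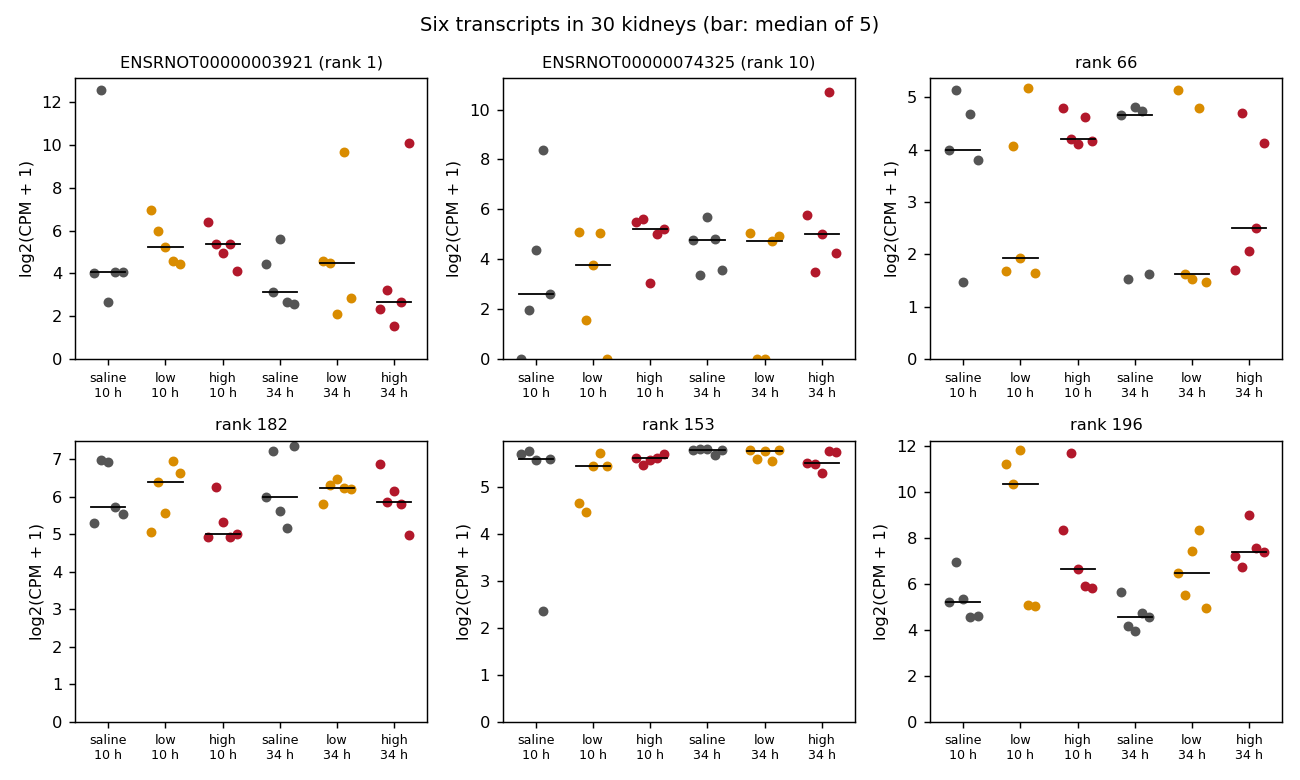
Levels of 6 members, as log2(CPM + 1), in each kidney (points) by group, with the group median as a bar. Rank is the place in the order of saline SD, and the panels show transcripts high in single kidneys (ranks 1 and 10), one with values in 2 ranges (rank 66), one with 2 levels in saline kidneys (rank 182), one low in 1 saline kidney at 4.16 CPM (rank 153) and one that was high in several treated kidneys (rank 196).

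Some members mirrored each other. Of the 19900 pairs of members, 7 had a correlation of -0.9 or lower over the saline kidneys, and 4 of these had -0.5 or lower over the treated ones. The number of such pairs rested on single kidneys. Among the members chosen without saline replicate 1 or 2 at 10 h it was 80 or 96, without each of the other saline kidneys except replicate 5 at 34 h it was 12 to 35, and without that one it was 6. These 4 pairs were formed by 5 transcripts, all with divided counts. How many of all pairs had -0.5 or lower over the treated kidneys is not given, so nothing is read from the 4. Ranks 171 (6396 bases) and 188 (5994 bases) had 20.8, 11.1, 6.47, 3.05 and 13.6 CPM and 3.37, 8.96, 14.5, 13.7 and 6.17 CPM in saline kidneys at 10 h. At 34 h they had 8.04, 8.83, 16.0, 25.9 and 3.33 CPM and 6.90, 10.4, 3.96, 2.85 and 18.8 CPM. Where one was high the other was low.

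The sum of ranks 171 and 188 was steadier than either. Over the saline kidneys the coefficient of variation (SD over mean of CPM) was 63.7% for rank 171, 59.7% for rank 188 and 18.5% for their sum. Over the treated kidneys it was 81.6, 49.3 and 25.3%. Their correlation was -0.94 over the saline and -0.74 over the treated kidneys. All 7 pairs were chosen for opposed levels over these saline kidneys, so a steadier saline sum can follow from the choice. The sum of 2 unrelated transcripts can also be steadier than either, and sums of other pairs were not computed. Ranks 171 and 188 were picked from the 7 after their treated values were seen. Over the treated kidneys the sum had 23.9 to 51.0% in the 7 pairs and the steadier transcript of each pair 36.6 to 71.8%, and the gain was small for ranks 152 and 159 (51.2% to 51.0%) and for ranks 130 and 169 (52.3% to 50.1%). Over the saline kidneys the sums of these 2 pairs, at 69.1 and 111%, varied more than their steadier transcript. Whether paired transcripts belong to the same gene is not recorded in the files.

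Aligned pairs lay mostly within the blocks. Of 2548 pairs with a correlation of 0.9 or more over the saline kidneys, 2308 were in the first block, 105 in the second and 45 among the 116 transcripts outside. Over the treated kidneys these 45 had a median correlation of 0.63, from -0.42 to 0.95, and 28 reached 0.5. All 6670 pairs outside the blocks had a median of 0.0035 over the treated kidneys, and how many of them reached 0.5 is not given.

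The spread among treated kidneys was not used by the rule. Ranked by their SD over the 20 treated kidneys, with the mean of each of the 4 groups removed, 135 of the 200 members (67.5%) were again among the 200 most variable of the 12788 transcripts, of which 200 are 1.56%. All 200 had a treated SD above the median of the ranked transcripts and 196 were in the top 10%. The median treated SD was 0.913 for members and 0.176 for ranked transcripts. Over all ranked transcripts the saline and the treated SD had a Spearman correlation of 0.64, a description across transcripts that share libraries and depth. The level rules drew on the saline kidneys. Transcripts with a low saline mean that were high in single treated kidneys were therefore not ranked. Without saline replicate 2 at 10 h, 14 of the 69 first block transcripts met these rules. The 67.5% and the 1.56% thus hold within this pool, and how far the level rules set their distance was not tested.

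**Figure D4:**
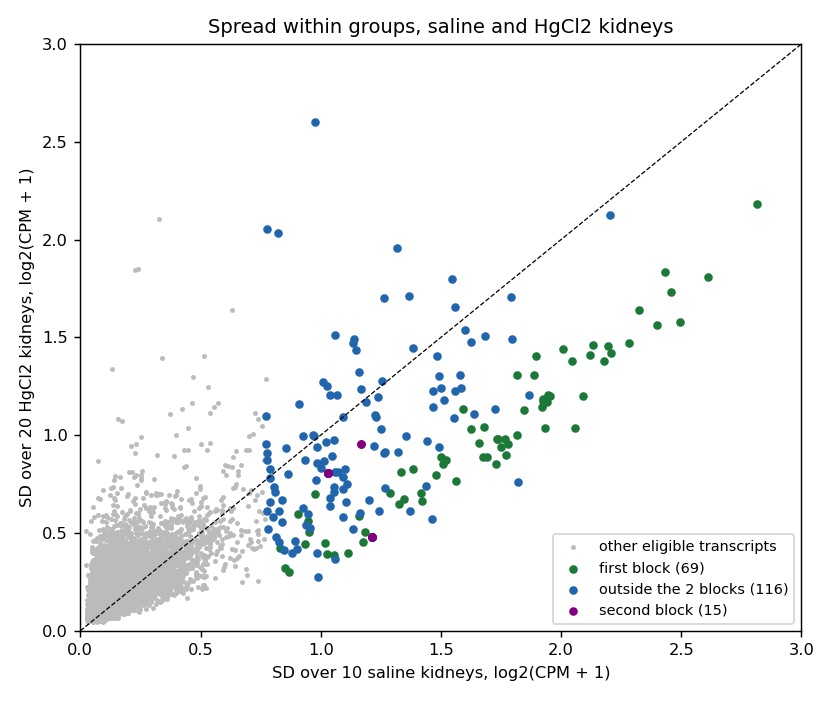
SD of log2(CPM + 1) within groups over the 10 saline kidneys (x) and the 20 HgCl2 kidneys (y) for the 12788 ranked transcripts, with the members coloured by set and equality as a dashed line. All members lie right of 0.773 by the rule, and their treated SD had a median of 0.913 against 0.176 for all ranked transcripts.

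How far the spread recurred differed between the sets and rested on single kidneys in the blocks. Of the first block, 48 of 69 were among the 200 most variable in treated kidneys, and 5 of 69 without low dose replicate 4 and high dose replicate 5 at 34 h. The median correlation between its transcripts over treated kidneys was 0.88 with and 0.33 without these 2 kidneys. Of the second block, 10 of 15 were among the 200, and 0 once high dose replicate 4 at 34 h was also left out. Of the 116 transcripts outside, 77 were among the 200 with all treated kidneys, 85 without the first 2 and 87 without all 3. Their median treated SD was 0.939, 0.937 and 0.899 in these settings, so the spread of this set did not rest on these kidneys.

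Members with whole counts recurred as well. Among those outside the blocks, 9 of 17 with whole counts (52.9%) and 68 of 99 with divided counts (68.7%) were among the 200 most variable in treated kidneys, with median treated SDs of 0.801 and 0.942. In the first block these were 17 of 29 and 31 of 40, with low dose replicate 4 and high dose replicate 5 at 34 h included. When the 5542 transcripts with whole counts alone were ranked, 97 of the 200 then chosen were among the 200 most variable of these in treated kidneys. With all 12788 ranked transcripts it was 135. Both lists of 200 came from a smaller pool in the first case, so the 2 counts do not compare evenly.

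Comparisons between groups were made to see how transcripts that vary this much among untreated rats read in a dose comparison. All 200 members were among the 21112 transcripts tested. Comparisons with saline share the libraries that chose the members, and those at 1 time share their saline kidneys, while high against low dose uses none of them. edgeR's quasi-likelihood test called 0 of the 200 members at an adjusted p under 0.05 in each of the 7 comparisons, where it called 0 to 0.0332% of all transcripts tested. The smallest adjusted p of a member was 0.551 and 0.200 for low and high dose against saline at 10 h, and 0.239 and 0.240 at 34 h. It was 0.121 for high against low dose at 10 h, 0.999 for the same at 34 h and 0.492 for saline at 34 h against saline at 10 h.

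Unadjusted p values under 0.05 were unevenly spread, and in the 5 comparisons with saline kidneys most of them lay in the first block. The saline kidneys chose the members, and saline replicate 2 at 10 h fixes the direction of the first block at that time, so the shares below are a description and nothing is read from their distance to the background. At 10 h edgeR gave them to 43 members (21.5%, background 9.02%) for low dose and 61 (30.5%, background 14.1%) for high dose against saline. Of the 43, 38 were lower than saline (background 4.69%), 29 of these in the first block, and of the 61, 54 were lower (background 6.76%), 46 of these in the first block. Saline at 34 h against saline at 10 h gave 57 (28.5%, background 9.66%), of which 55 were lower at 34 h (background 4.88%), 50 of these in the first block. Of the 116 transcripts outside the blocks, 5 were higher and 9 lower for low dose, 7 higher and 8 lower for high dose, and 2 higher and 5 lower for saline at 34 h. The backgrounds of higher transcripts were 4.33, 7.29 and 4.78%. The counts also moved when 1 kidney was left out. That of 43 was 10 to 14 without any 1 of the 5 low dose kidneys and 69 or 70 without saline replicate 5 or 3. That of 61 was 11 to 19 without any 1 of the 5 high dose kidneys. Both fell whichever treated kidney was left out, so the fall did not rest on a particular one. Without saline replicate 2 at 10 h these 2 counts were 45 and 46, mostly in the other direction. Of them, 38 and 41 were higher than saline (backgrounds 4.39 and 5.05%), and 7 and 5 were lower (backgrounds 3.98 and 5.37%). That of 57 was 9 (4.5%, background 6.45%) without saline replicate 2 at 10 h. It was 6 to 14 without saline replicate 1, 2, 4 or 5 at 34 h. Where no background is given for a left-out kidney, the change is not read as a trait of the members.

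In the comparisons without the 10 h saline kidneys the counts were smaller. At 34 h there were 19 members (9.50%, background 14.3%) for low dose and 21 (10.5%, background 5.52%) for high dose against saline, of which 13 and 16 were first block transcripts that were higher in the dose. High against low dose gave 14 (7%, background 17.2%) at 10 h and 14 (7%, background 3.21%) at 34 h. Of the last 14, 10 belonged to the second block, which was highest in high dose replicate 4. The 15 transcripts of that block had only 3 different sets of values, so these 10 are not separate results. Leaving out 1 kidney moved these counts too. That of 19 was 8 to 10 without saline replicate 1, 2 or 4 or low dose replicate 4, and 32 to 45 without saline replicate 3 or low dose replicate 3 or 5. That of 21 was 8 to 13 without saline replicate 1, 2, 4 or 5 and 33 to 37 without high dose replicate 1, 2 or 3. For high against low dose the count was 28 without high dose replicate 2 at 10 h. At 34 h it was 2 to 6 without low dose replicate 1, 2, 3 or 5 or high dose replicate 4, and 59 without high dose replicate 5.

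The direction of the first block in the dose comparisons was that of single kidneys. Its median log2 fold change was -3.80 for low and -3.96 for high dose against saline at 10 h, where the median of all transcripts tested was -0.0016 and 0.012. Without saline replicate 2 the medians were 0.88 and 1.03. Of the 69, 33 and 34 then had an unadjusted edgeR p under 0.05 and were higher than saline, while 2 and 0 were lower. At 34 h the medians were 2.26 and 2.57, and without low dose replicate 4 and high dose replicate 5 they were -0.21 and -0.56. All 4 signs turned.

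**Figure D5:**
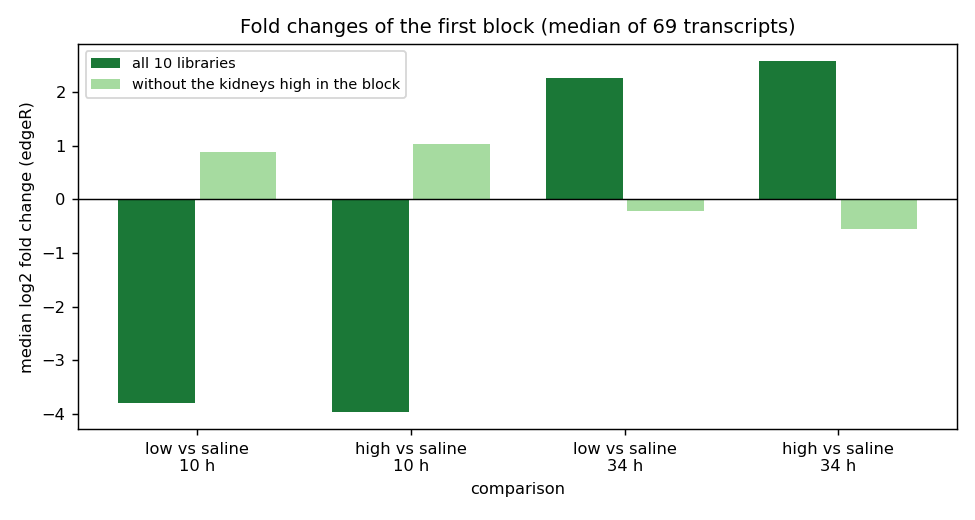
Median edgeR log2 fold change of the 69 transcripts of the first block in 4 comparisons of a dose with saline, with all 10 libraries (dark bars) and without the kidneys in which the block was high (light bars). The medians were -3.80, -3.96, 2.26 and 2.57 with all libraries and 0.88, 1.03, -0.21 and -0.56 without these kidneys.

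Since saline replicate 2 chose the block, these medians and counts are a description. The block's sums were 293 to 606 CPM in low dose, 310 to 508 CPM in high dose and 239 to 352 CPM in the 4 saline kidneys at 10 h, so the groups overlapped in both cases.

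The second block had a median log2 fold change of 2.0 for high against low dose at 34 h, and its smallest edgeR p in that comparison was 0.0343 before adjustment. The 4 other high dose kidneys at 34 h had sums of 176 to 510 CPM and the low dose kidneys 186 to 359 CPM, so without replicate 4 the groups overlapped on both sides. Over the 116 transcripts outside the blocks the median log2 fold change stayed between -0.09 and 0.09 in all 7 comparisons.

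Outside the blocks, the members of rank 158, 186 and 196 had higher means in every treated group than in the saline group of the same time. They were also chosen after their values were seen. Rank 196 (1761 bases) had 35.7, 122, 39.2, 22.4 and 23.4 CPM in saline kidneys at 10 h and 49.1, 17.05, 14.6, 25.9 and 22.4 CPM at 34 h. Low dose kidneys at 10 h had 2338, 1309, 3598, 32.5 and 31.4 CPM, and high dose kidneys at 10 h had 319, 3316, 98.5, 58.9 and 55.1 CPM. Within each dose at 10 h some kidneys were thus over 10 times as high as others, and the doses overlapped with saline.

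At 34 h the member of rank 196 had 87.4, 45.2, 173, 324 and 29.5 CPM in low dose and 147, 104, 502, 189 and 166 CPM in high dose kidneys. All 5 high dose kidneys lay above all 5 saline kidneys, and this was the only member with groups apart in that comparison (0.5% of members, background 1.1%). The edgeR log2 fold change for high dose against saline at 34 h was 3.02 ± 0.46 (SE, derived from the test), with an adjusted p of 0.240.

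Rank 186 (1924 bases) had 9.04, 43.7, 11.8, 8.24 and 4.38 CPM in saline kidneys at 10 h and 10.5, 4.82, 4.53, 4.79 and 8.20 CPM at 34 h. Low dose kidneys had 279, 595, 138, 11.4 and 4.97 CPM at 10 h and 23.9, 33.1, 12.7, 230 and 24.8 CPM at 34 h. High dose kidneys had 84.9, 431, 7.36, 18.7 and 10.4 CPM at 10 h and 201, 105, 88.3, 80.9 and 6.59 CPM at 34 h. At 34 h all 5 low dose kidneys lay above all saline kidneys (the only member with groups apart, 0.5% of members, background 2.55%), as did 4 of 5 high dose kidneys.

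Leaving out 1 kidney decided the call of rank 186. For high dose against saline at 34 h its edgeR log2 fold change was 3.85 ± 0.69 (SE) with an adjusted p of 0.390, and 4.15 with an adjusted p of 0.0107 without high dose replicate 5. That was the only transcript called among the 21112 in that setting (0.00474%). For low dose against saline at 34 h the log2 fold change was 3.30 ± 0.85 (SE), with an adjusted p of 0.239.

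The member of rank 158 (993 bases), which had the largest SD of all ranked transcripts over the treated kidneys, was high in some of the same kidneys. It had 1.66 to 32.3 CPM in the 10 saline kidneys, with a median of 2.67. Low dose kidneys at 10 h had 390, 327, 763, 3.90 and 17.5 CPM, and high dose replicate 2 at 10 h had 1238 CPM where the other 4 had 3.69 to 8.18 CPM. At 34 h the high dose kidneys had 6.81, 3.48, 428, 7.29 and 3.92 CPM. Over the treated kidneys it correlated with rank 196 at 0.88 and with rank 186 at 0.65, and ranks 186 and 196 correlated at 0.78. Over the saline kidneys the same correlations were 0.26, 0.28 and 0.91. All 3 members were above 100 CPM in low dose replicates 1, 2 and 3 and high dose replicate 2 at 10 h. The last of these kidneys was 1 of the libraries that stood apart.

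The lowest p values of members at 10 h were those of ranks 146 and 164. Rank 146 (1198 bases) had 31.5, 31.3, 3.72, 31.0 and 28.2 CPM in saline and 0.856, 3.26, 2.50, 0.253 and 3.81 CPM in high dose kidneys at 10 h. Saline replicate 3 alone lay within the range of the high dose. The edgeR log2 fold change was -3.57 ± 0.74 (SE) with an adjusted p of 0.200. Low dose kidneys at 10 h had 29.0, 20.7, 44.7, 10.4 and 1.84 CPM. Saline kidneys at 34 h had 3.72, 3.11, 19.7, 4.52 and 6.87 CPM, so low levels were not confined to the high dose.

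The member of rank 164 (1844 bases) had 137, 78.9, 40.9, 93.5 and 69.4 CPM in saline, 30.1, 30.4, 25.9, 45.7 and 23.6 CPM in low dose and 90.5, 53.6, 33.6, 105 and 83.9 CPM in high dose kidneys at 10 h. The edgeR log2 fold change was -1.46 ± 0.31 (SE) for low dose against saline (adjusted p = 0.551) and 1.26 ± 0.30 (SE) for high against low dose (adjusted p = 0.121). In both comparisons the groups overlapped by 1 kidney on each side, and saline kidneys at 34 h had 5.68 to 50.7 CPM.

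Other tools called few members. DESeq2, which gave an adjusted p to 46 to 182 of the 200 members, called 4 for low dose (3.51% of those members, background 0.412%) and 4 for high dose (3.64%, background 6.26%) against saline at 10 h. At 34 h it called 3 (2.88%, background 3.84%) and 2 (1.40%, background 0.196%). For high against low dose it called 7 at 10 h (3.85%, background 6.52%) and 0 at 34 h (background 0.0192%), and 0 for the 2 saline groups (background 1.39%). limma voom with quality weights called 9 members for high against low dose at 10 h (4.50%, background 11.4%) and 0 in the other comparisons (background 0 to 0.0521%, with 0.0189% for low dose against saline at 34 h). A single edgeR fit of all 30 libraries called 1 in the former (0.5%, background 3.19%) and 0 in the others, where the background was 0 to 0.294%.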

How the data were processed

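Expression was measured by poly-A RNA sequencing (75-bp pairs), per the labels' protocols. The deposited estimated counts, lengths and TPM values per target come from kallisto 0.42.2 with build Rnor_6.0, per the submitters' processing notes. No source used here gives the annotation release or the options. Each library lists 65166 targets, of which 40071 transcripts were used and 25095 genomic intervals (5.82 to 9.23% of counts) left out.

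CPM were computed from the deposited estimated counts over transcripts. Counts were rounded and tested per transcript with edgeR 4.0.16 (quasi-likelihood, robust, TMM, filterByExpr over 30 libraries, groups compared only) in R 4.3.3, with Benjamini-Hochberg adjustment over 21112 transcripts and calls at adjusted p under 0.05. DESeq2 1.42.0, limma 3.58.1 voom and left-out libraries were alternatives. The steps were tested on simulated data. The labels give 5 animals per group, 1 library each, and no replicate numbers, so replicates were numbered in order of deposition.

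The members, lists and sets were chosen with earlier results of these data known. Named transcripts were, in each direction of the largest departure, the first by saline SD and the next whose departure lay outside saline replicate 2 at 10 h. The reference table held 0 of the transcript IDs among 47357 genes, so gene names, sequences, marker and pathway lists were not used here. Reads without molecular identifiers are not independent molecules, so no intervals of counting error are given, and values stand per kidney.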

Additional observations from a re-analysis of the deposited data

Results flagged for a closer look

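In groups of 5 kidneys, a value was marked where its distance to the nearest other value was unusually large against the range of the group (Dixon's test at 95%). Of 102 groups examined, over both blocks, the 4 named transcripts and the 11 others described by rank, 31 were marked. Chance alone marks about 1 in 20 where values are normally distributed, but the test was run on CPM without a log. Among the ranked transcripts, a high kidney was marked for 3.08% (saline at 34 h) to 9.36% (high dose at 10 h) over the 6 groups. A low one was marked for 1.88% (saline at 10 h) to 5% (high dose at 34 h). Most of these transcripts were chosen for such values in saline kidneys, so the marks there are a description. Those given by rank were chosen after all their values were seen, so their marks in treated kidneys are a description as well.

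For the summed first block the marked kidneys were saline replicate 2 at 10 h (18813 CPM), low dose replicate 4 at 34 h (2767 CPM) and high dose replicate 5 at 34 h (3634 CPM). ENSRNOT00000003921 was marked in the same 3, at 6050, 810 and 1104 CPM. For the summed second block they were saline replicate 4 at 10 h (1911 CPM), saline replicate 3 at 34 h (942 CPM) and high dose replicate 4 at 34 h (3271 CPM), and ENSRNOT00000074325 was marked in the first and last of these, at 333 and 1678 CPM. ENSRNOT00000092356 was marked in high dose replicate 2 at 10 h (88.3 CPM) and ENSRNOT00000048429 in high dose replicate 5 at 34 h (46.9 CPM).

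High dose replicate 2 at 10 h was also marked as high for rank 158 (1238 CPM), rank 182 (75.7 CPM), rank 186 (431 CPM), rank 188 (25.5 CPM) and rank 196 (3316 CPM). High dose replicate 3 at 34 h was high for rank 158 (428 CPM) and rank 196 (502 CPM). Low dose kidneys at 34 h were marked in replicate 1 for rank 181 (low, 20.9 CPM), in replicate 5 for rank 171 (18.3 CPM) and in replicate 4 for rank 186 (230 CPM).

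In saline kidneys at 10 h, replicate 2 was high for rank 186 (43.7 CPM) and rank 196 (122 CPM), replicate 3 was high for rank 158 (32.3 CPM) and low for rank 146 (3.72 CPM), and replicate 4 was low for rank 153 (4.16 CPM). At 34 h, replicate 3 was high for rank 146 (19.7 CPM), and replicate 4 was low for rank 153 (50.9 CPM) and high for rank 158 (3.83 CPM).

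Over all 200 members, a high kidney was marked for 99 (49.5%) in saline at 10 h and 37 (18.5%) in saline at 34 h, against 3.71 and 3.08% of the 12788 ranked transcripts. In low and high dose it was marked for 17 (8.5%) and 29 (14.5%) at 10 h, against 4.44 and 9.36%, and for 74 (37.0%) and 85 (42.5%) at 34 h, against 3.75 and 7.12%. Of the 74, 64 were first block transcripts marked in low dose replicate 4. Of the 85, 55 were first block transcripts marked in high dose replicate 5, and 10 were second block transcripts marked in replicate 4. These are not separate results. Outside the blocks it was marked for 13 and 17 of 116 at 10 h and for 10 and 20 at 34 h. The kidney marked most often in high dose at 10 h was replicate 2, for 16 members, 15 of them outside the blocks.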

How the results depend on the processing

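Estimates that kallisto divides among targets, the absence of gene names and 1 library per animal limit what these values show. No paired analysis was possible because the labels give no replicate numbers. Counts of members rest on the border of the ranking. In the 7 comparisons edgeR called 0 members, and 0 when each library was left out in turn, except 1 in high dose against saline at 34 h without high dose replicate 5. The cause of the differences below was not tested, except where fewer libraries or transcripts entered by construction.

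With a mean of at least 10 CPM required, 117 of the 200 members remained, with 34 opposed pairs (17 at -0.5 or lower in treated kidneys) and 1013 aligned pairs (876 at 0.5 or more in treated kidneys). With whole counts only, 46 members remained. The 200 then chosen had a median treated SD of 0.414, 57 with the largest departure in saline replicate 2 at 10 h, 53 set by a single kidney, 1013 aligned pairs (762 at 0.5 or more in treated kidneys) and 0 opposed pairs at -0.5 or lower. On log2(TPM + 1) there were 9 members with 2 levels and 2 opposed pairs at -0.5 or lower in treated kidneys, and with TMM library sizes also 9 with 2 levels. Without low dose replicate 4 and high dose replicate 5 at 34 h, 1066 of the 2548 aligned pairs reached 0.5 in treated kidneys, and 1096 when high dose replicate 4 was also left out, both chosen after seeing the data. With a pseudocount of 0.5 all 11 such values stayed within 1.5 times, as did the 4 computed without the treated libraries that stood apart.

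Leaving out each saline kidney in turn, 123 (without saline replicate 2 at 10 h) to 194 members remained. Of those then chosen, 119 to 137 were among the most variable in treated kidneys, with a median treated SD of 0.792 to 0.940. Between 84 and 92 had the largest departure in saline replicate 2 at 10 h. A single kidney set 28 to 109, 3 to 19 had 2 levels and 87 to 159 were graded. There were 6 to 96 opposed pairs (1 to 31 at -0.5 or lower in treated kidneys) and 286 to 2885 aligned pairs (242 to 2601 at 0.5 or more in treated kidneys). The first block was lost without saline replicate 2 at 10 h (1 of 69 remained) and the second without saline replicate 4 at 10 h (0 of 15).

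For members called, DESeq2 gave 4 for low and 4 for high dose against saline at 10 h, 3 and 2 at 34 h, and 7 for high against low dose at 10 h. voom with quality weights gave 9 and a single fit of all 30 libraries 1 for the last. Without high dose replicate 5, 1 was called in high dose against saline at 34 h, so that the range over left-out libraries was 0 to 1.

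Members with an unadjusted p under 0.05 for low dose against saline at 10 h (43) were 12 by DESeq2, 10 by voom, 21 without a filter, 81 in a single fit, and 10 to 70 when a library was left out. For high dose at 10 h (61) they were 14 by DESeq2, 14 by voom, 29 without a filter, and 11 to 83. For low dose at 34 h (19) they were 6 by voom, 4 in a single fit, 10 without the kidneys high in the first block, and 8 to 45. For high dose at 34 h (21) they were 13 by DESeq2, 8 by voom, 13 without a filter, 12 in a single fit, 51 without the libraries that stood apart, and 8 to 37.

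For high against low dose at 10 h (14) they were 41 by voom, 7 in a single fit, 28 without high dose replicate 2, which stood apart, and 11 to 28. For the same at 34 h (14) they were 6 by DESeq2, 4 without a filter, 4 without the libraries that stood apart, 27 without the kidneys high in the first block, and 2 to 59. For saline at 34 h against 10 h (57) they were 10 by DESeq2, 4 by voom, 9 without saline replicate 2 at 10 h, and 6 to 72. With the size factors of DESeq2 the counts stayed within 1.5 times in all 7 comparisons. For most of these settings no share over all transcripts is given, so the changes are not read as a trait of the members.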
